A study of Mus musculus with 4 samples.

Results

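Nuclear genes of the respiratory complexes II to V were followed in hearts that lack PRMT1 in cardiomyocytes. Members were the genes whose symbol begins with Sdha to Sdhd, Sdhaf, Uqcr, Uqcc, Cox and a digit, or Atp5, together with Cyc1 and Cycs, where the deposited table lists at least 2 exons. Of 67 such symbols, 5 were left out for having fewer exons. A further 8 isoform genes of complex IV, Cox4i1, Cox4i2, Cox6a1, Cox6a2, Cox7a1, Cox7a2, Cox8a and Cox8b, were set apart. The rule uses no measured value and gave 54 members of 43346 genes in the table. By role they were 4 subunits of complex II, 9 of complex III, 9 of complex IV and 15 of complex V, the cytochrome c gene Cycs, the supercomplex factor Cox7a2l, the ATP synthase related genes Atp5s and Atp5sl, and 13 assembly factors.

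The respiratory chain sits in the inner mitochondrial membrane and passes electrons from fuel molecules to oxygen. Complex II (succinate dehydrogenase) feeds electrons from the citric acid cycle into ubiquinone, complex III passes them to cytochrome c, and complex IV (cytochrome c oxidase) passes them on to oxygen. Complexes III and IV pump protons, and complex V (ATP synthase) uses the proton gradient to make ATP, on which the beating heart depends almost entirely. Apart from a few subunits encoded in mitochondrial DNA, all parts are made from nuclear genes, and assembly factors insert haem, copper and single subunits without staying in the finished complex.

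The study compared hearts of 2 PRMT1-cKO and 2 WT mice, all C57BL/6 and 6 weeks of age. PRMT1 places asymmetric dimethyl marks on arginine residues, and the deletion concerns cardiomyocytes, so the other cells of the heart keep the gene; the labels do not name the driver of the deletion. Total RNA of whole hearts was sequenced after removal of ribosomal RNA, and each library is 1 heart. Gene reads numbered between 18291730 and 18674587 in the PRMT1-cKO libraries and between 21701967 and 25509854 in the WT libraries, of which the mitochondrial ribosomal RNA gene mt-Rnr2 took 51.2 to 52.8% in PRMT1-cKO and 64.9 to 65.8% in WT. Prmt1 itself had 33 and 44 gene reads in PRMT1-cKO hearts, against 33 and 18 in WT hearts, and 0 exon reads in each library, so the table does not check the genotype labels. Exon reads, which are almost only reads across an exon junction, numbered 671361 to 764806 in PRMT1-cKO and 544891 to 624897 in WT. Gene reads are exon reads plus reads outside annotated exons, called intron reads here. Reads lying within a single exon are nearly absent from exon reads and hence from gene reads, so a low count need not mean a low RNA level. Levels are given as CPM (counts scaled to a common library total) of exon reads after TMM scaling unless gene reads are named.

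Promoter windows were examined as a property of the members other than their names. RefSeq windows of GRCm38.p6, 250 bases before to 50 bases after the annotated start, were matched for 44 of the 54 members. Each was searched on both strands for 4 motifs named after factors known to bind respiratory gene promoters. The NRF1 consensus was searched with its middle base free, ETS/GABP as CCGGAAGT, the extended site of the oestrogen-related receptors (ERR) as TCAAGGTCA, and YY1 as AAGATGGC. The windows of Sdhd, Uqcr11 and Atp5o are shown because, among members whose exon reads fell, each is the subunit of its complex with the largest fall that holds a motif. The window of Atp5g1, the member with the largest fall in exon reads, follows as one without any. All are on the minus strand, are printed 5′ to 3′ in the direction of transcription, and have the matches in capitals.
Sdhd, chr9:50603800-50604099: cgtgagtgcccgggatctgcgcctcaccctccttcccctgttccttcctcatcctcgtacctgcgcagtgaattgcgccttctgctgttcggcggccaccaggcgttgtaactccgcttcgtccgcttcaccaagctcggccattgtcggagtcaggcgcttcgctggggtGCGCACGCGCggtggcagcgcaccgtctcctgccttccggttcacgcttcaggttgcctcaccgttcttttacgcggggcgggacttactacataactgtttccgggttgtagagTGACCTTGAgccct
Uqcr11, chr10:80406772-80407071: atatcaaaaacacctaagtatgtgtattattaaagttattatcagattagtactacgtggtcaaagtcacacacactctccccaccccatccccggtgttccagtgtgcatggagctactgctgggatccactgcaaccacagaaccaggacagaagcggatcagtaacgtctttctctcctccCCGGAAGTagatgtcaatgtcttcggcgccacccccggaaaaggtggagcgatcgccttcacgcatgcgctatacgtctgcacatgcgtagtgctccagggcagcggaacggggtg
Atp5o, chr16:91931581-91931880: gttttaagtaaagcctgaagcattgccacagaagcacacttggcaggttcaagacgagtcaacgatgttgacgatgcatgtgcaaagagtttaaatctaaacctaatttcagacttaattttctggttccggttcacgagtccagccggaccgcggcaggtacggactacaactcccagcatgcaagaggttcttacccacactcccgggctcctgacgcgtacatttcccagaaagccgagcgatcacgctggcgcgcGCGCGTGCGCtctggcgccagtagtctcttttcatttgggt
Atp5g1, chr11:96075582-96075881: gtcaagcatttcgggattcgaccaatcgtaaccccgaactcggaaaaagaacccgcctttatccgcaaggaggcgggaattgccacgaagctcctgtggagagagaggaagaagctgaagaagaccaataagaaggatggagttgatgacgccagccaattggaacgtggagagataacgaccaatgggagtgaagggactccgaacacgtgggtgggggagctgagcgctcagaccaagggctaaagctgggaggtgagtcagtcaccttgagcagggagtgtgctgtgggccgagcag
In the Sdhd window the NRF1 letters begin at position -79 and the ERR letters, on the opposite strand, at position 37 from the start. The CCGGAAGT of Uqcr11 begins at position -66, and the NRF1 letters of Atp5o lie at position 10 on the opposite strand. NRF1 letters were found in 9 of the 44 member windows (20.5%) and in 4.60% of all 32851 promoter windows. ETS/GABP letters were in 6 member windows (13.6%) and 3.89% of all windows, YY1 letters in 6 (13.6%) and 2.75%, and ERR letters in 2 (4.55%) and 0.423%. At least 1 motif was in 18 of the 44 windows, among them 2 of 3 for complex II, 3 of 5 for complex III, 7 of 14 for complex V, 5 of 11 for assembly factors and 0 of 7 for complex IV. Most member windows thus held none of the 4, and the share of all promoter windows with at least 1 motif was not counted. The Sdha window held the NRF1 letters at 3 positions, -98, -55 and -10. A match is a description of these letters in this window, and no window shows whether a factor was bound.

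Most members had less RNA in PRMT1-cKO hearts, and this held for every complex. In exon reads 41 of the 54 members could be tested, and 34 were lower in PRMT1-cKO at an adjusted p under 0.05 (edgeR quasi-likelihood test, Benjamini-Hochberg over 4756 genes). Of all genes tested, 18.7% were lower and 36.2% changed in either direction. Among the 34, Uqcrb, Cox5b, Cox7c and Atp5a1 met the minimum count only through the WT libraries. They could be tested only because their WT counts were the higher ones, so their calls add no support. Atp5g2 and Atp5l, which did not pass, also met it only through WT. No member was higher in exon reads, where 17.6% of all genes were. At an unadjusted p under 0.05 the count of higher members was 1 (Cox19), and DESeq2 also gave 0. In gene reads 35 of 50 tested members were lower, against 11.2% of 13869 genes, and 0 were higher, against 11.5%; at an unadjusted p under 0.05 Cox18 and Cox19 made 2, and DESeq2 gave 0. Scaling gene reads by total counts alone, which shifted the median of all genes by 0.52 on the log2 scale, left 18 members lower and made 3 higher (Cox18, Cox19 and Cox7c). The median log2 change of the members was -1.29 in exon reads and -1.06 in gene reads, against 0.00 and 0.01 over all genes tested. Both PRMT1-cKO values lay below both WT values for 39 of the 41 members tested in exon reads, against 34.2% of all genes, and for 46 of 50 in gene reads, against 29.0%. The reverse was seen for 1 member in exon reads (33.8% of all genes) and for 2 in gene reads (30.4%). Summed over all members, exon reads came to 15449 and 16142 CPM in PRMT1-cKO hearts, against 34243 and 34946 CPM in WT hearts, 2.19-fold lower.

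**Figure D1:**
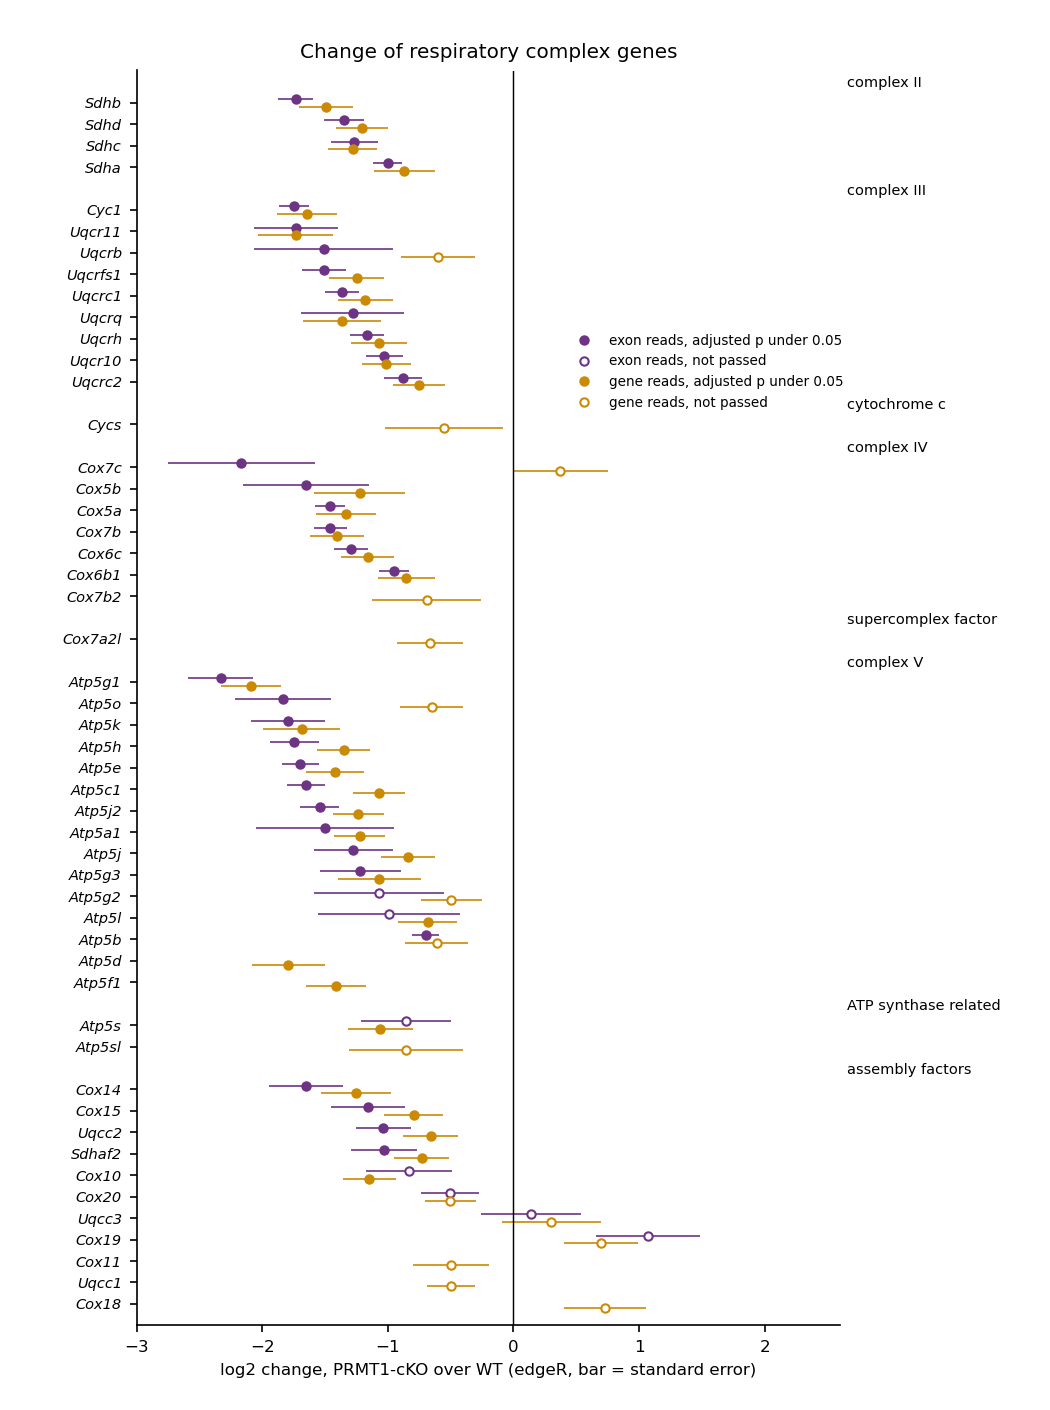
Log2 change (PRMT1-cKO over WT, horizontal axis) with its standard error for each member tested, in exon reads (purple) and gene reads (gold); filled points passed the edgeR test. Subunits lie left of 0 in exon reads without exception, the largest fall being that of Atp5g1 at -2.33, and Cox19, Cox18, Uqcc3 and, in gene reads, Cox7c lie right of 0 and did not pass.

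Subunits fell in each complex. Of 32 subunits of complexes II to V tested in exon reads, 30 fell, against 18.7% of all genes. The median log2 change of the 32 was -1.46, with a range of -2.33 to -0.70. By complex, 4 of 4 subunits fell in complex II (median -1.31), 9 of 9 in complex III (median -1.37), 6 of 6 in complex IV (median -1.46) and 11 of 13 in complex V (median -1.54). These counts include Uqcrb in complex III, Cox5b and Cox7c in complex IV and Atp5a1 in complex V, which met the minimum count only through WT libraries. Of the assembly factors, 4 of 8 fell (median -0.93). In gene reads the counts were 4 of 4, 8 of 9, 5 of 7 and 12 of 15 for complexes II to V, and 5 of 11 for assembly factors. Of all genes tested in gene reads 11.2% fell. Without WT replicate 1 only 2 assembly factors fell in exon reads and 2 in gene reads, and without WT replicate 2 only 3 subunits of complex IV fell in gene reads. With total counts alone 4 subunits of complex III, 2 of complex IV and 1 assembly factor fell in gene reads, and with DESeq2 2 assembly factors did. Whether complexes differ from each other was not tested. In whole hearts, fewer cells of a type and less RNA per cell cannot be told apart.

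**Figure D2:**
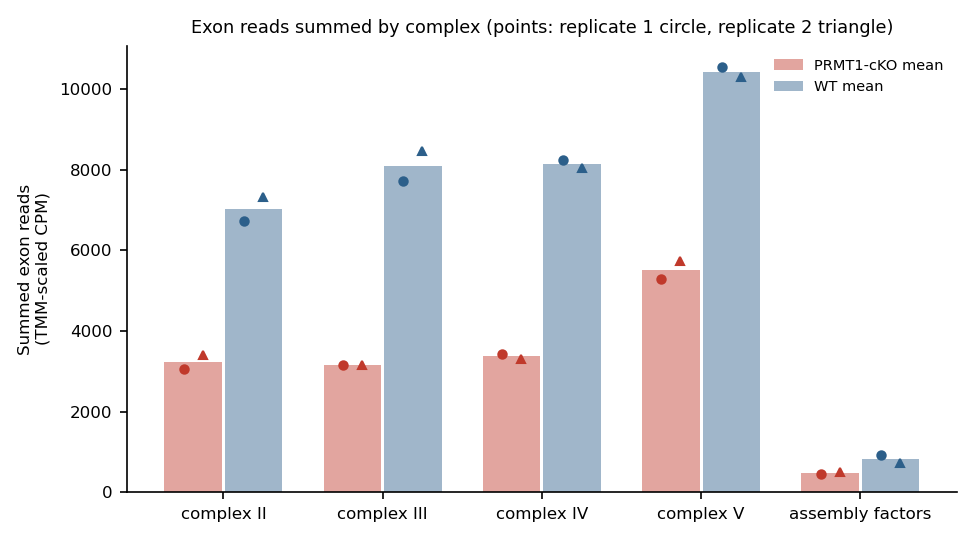
Exon reads summed over the members of each complex (TMM-scaled CPM, vertical axis), with bars for the mean of 2 hearts and points for each heart, PRMT1-cKO (red) left of WT (blue). The sums were 2.17-fold lower in PRMT1-cKO for complex II, 2.57-fold for complex III and 2.41-fold for complex IV. For complex V they were 1.89-fold and for assembly factors 1.71-fold lower. Hearts of a group lie close together, except the WT hearts in assembly factors, at 920 and 728 CPM.

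All 4 subunits of succinate dehydrogenase fell, in exon and in gene reads. Sdhb, the iron-sulfur subunit (ENSMUSG00000009863, chromosome 4, 140961203 to 140979193 on GRCm38), had 327 and 305 CPM in PRMT1-cKO hearts, against 1020.2 and 1080.0 CPM in WT hearts. It was 3.32-fold lower, a log2 change of -1.73 ± 0.14 (SE, edgeR adjusted p = 9.93e-08), the largest fall of the 4. Sdhd, a membrane anchor that binds ubiquinone (ENSMUSG00000000171, chromosome 9, 50596338 to 50603849), had 170.3 and 191 CPM in PRMT1-cKO hearts, against 438 and 480.4 CPM in WT hearts. The other anchor, Sdhc (ENSMUSG00000058076, chromosome 1, 171127165 to 171150603), had 101 and 105 CPM in PRMT1-cKO hearts, against 244 and 251 CPM in WT hearts. For all 3 genes the hearts of a group lay within a narrow band, PRMT1-cKO below WT as in 34.2% of all genes tested in exon reads. Sdhd was 2.55-fold and Sdhc 2.4-fold lower (edgeR adjusted p = 8.37e-06 and 8.05e-05). Sdha, the flavoprotein that oxidises succinate (ENSMUSG00000021577, chromosome 13, 74322254 to 74350280), had the most exon reads of the complex, with 2471 and 2807 CPM in PRMT1-cKO hearts, against 5036 and 5521 CPM in WT hearts. Its fall was the smallest, 2-fold (log2 change -1.00 ± 0.12, edgeR adjusted p = 5.38e-06). In gene reads Sdha changed by -0.87 ± 0.24 (edgeR adjusted p = 0.0135). That call was lost without WT replicate 1 (adjusted p = 0.101) and without WT replicate 2 (0.263).

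**Figure D3:**
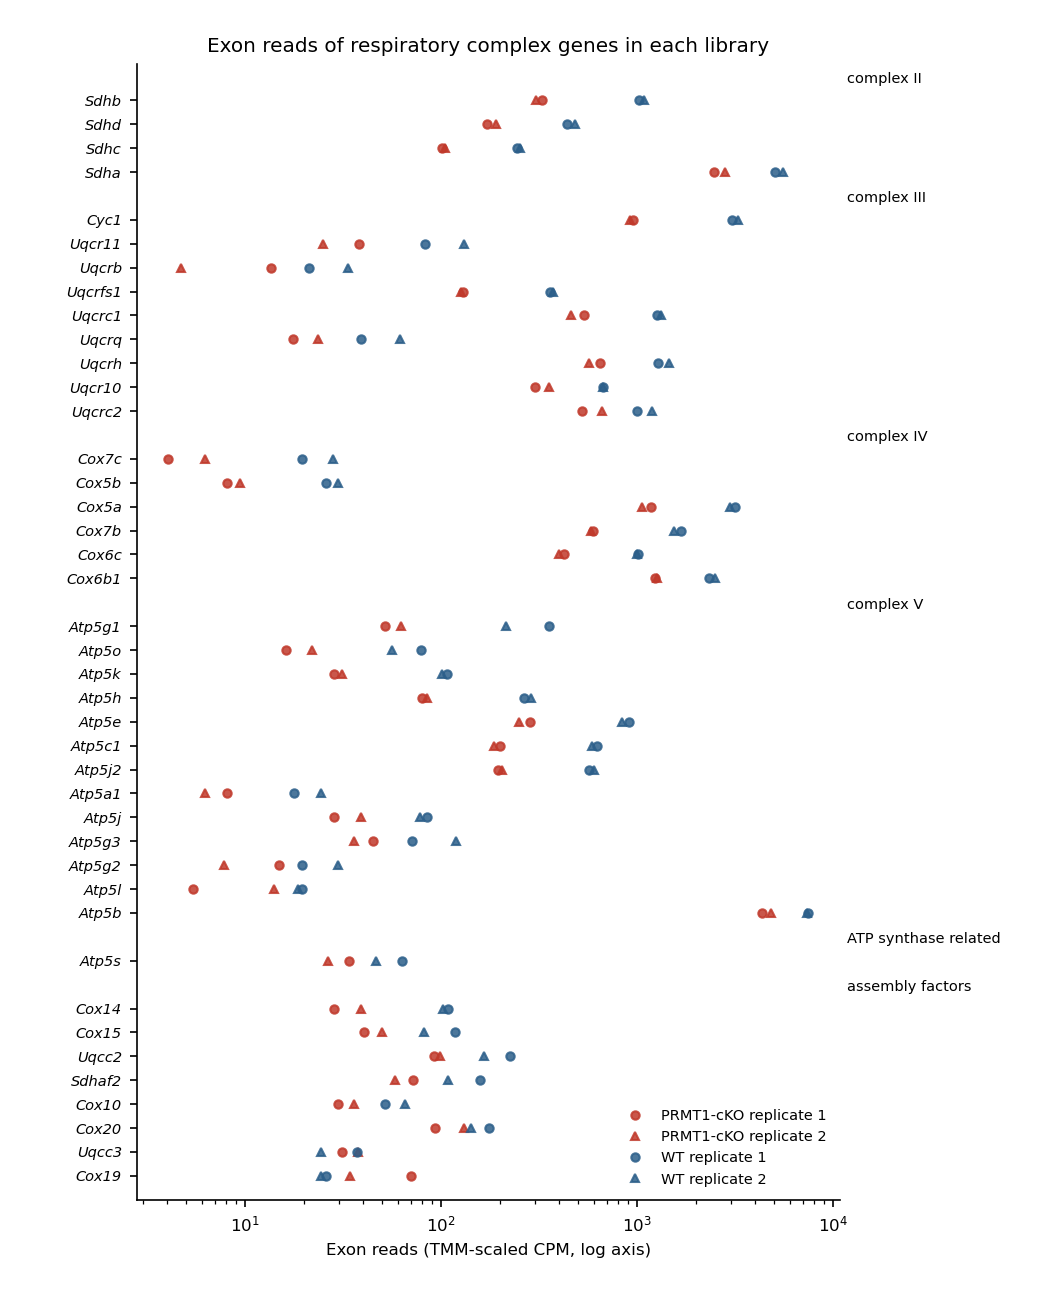
Exon reads (TMM-scaled CPM, logarithmic axis) of the 41 members tested, 1 row per gene, with red points for the PRMT1-cKO hearts and blue for the WT hearts, circles for replicate 1 and triangles for replicate 2. Red lies left of blue in 39 rows; in the Cox19 row red lies right of blue, and in the Uqcc3 row the colours mix.

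All 9 member subunits of complex III fell in exon reads, Uqcrb having met the minimum count only through the WT libraries. Cyc1, the haem-carrying cytochrome c1 (ENSMUSG00000022551, chromosome 15, 76343523 to 76345934), had 949 and 918 CPM in PRMT1-cKO hearts, against 3030.0 and 3251 CPM in WT hearts, and was 3.36-fold lower (log2 change -1.75 ± 0.12, edgeR adjusted p = 1.79e-08). Uqcr11, a small accessory subunit (ENSMUSG00000020163, chromosome 10, 80402997 to 80406830), had 37.8 and 25 CPM in PRMT1-cKO hearts, against 82.5 and 130.3 CPM in WT hearts, and was 3.32-fold lower (log2 change -1.73 ± 0.33, edgeR adjusted p = 0.000735). The Rieske iron-sulfur protein Uqcrfs1 (ENSMUSG00000038462, chromosome 13, 30540308 to 30545362) had 129.7 and 127 CPM in PRMT1-cKO hearts, against 359 and 371 CPM in WT hearts, 2.84-fold lower. In these 3 genes both PRMT1-cKO hearts lay below both WT hearts, as in 34.2% of all genes tested in exon reads. Both core proteins, Uqcrc1 and Uqcrc2, fell. Uqcrc1 had 538 and 461 CPM in PRMT1-cKO hearts, against 1258 and 1320.2 CPM in WT hearts. Uqcrc2, whose fall was the smallest of the complex, had 524 and 664 CPM in PRMT1-cKO hearts, against 993 and 1188 CPM in WT hearts. The folds were 2.58 and 1.84 lower (edgeR adjusted p = 1.02e-06 and 0.000266). In gene reads the Uqcrc2 call (adjusted p = 0.0126) was lost without WT replicate 1 (0.0706) and without WT replicate 2 (0.274).

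Of the small accessory subunits of complex III, Uqcrh, the hinge protein between cytochrome c1 and cytochrome c, had 642 and 570.1 CPM in PRMT1-cKO hearts, against 1271 and 1447 CPM in WT hearts. Uqcr10 had 301 and 356 CPM in PRMT1-cKO hearts, against 668 and 670.4 CPM in WT hearts, 2.04-fold lower (edgeR adjusted p = 5.09e-05). Uqcrq had 17.6 and 23.4 CPM in PRMT1-cKO hearts, against 38.8 and 61.4 CPM in WT hearts, and its call (edgeR adjusted p = 0.0222) was lost without PRMT1-cKO replicate 1 (0.0858) and without WT replicate 2 (0.191). Uqcrb, which lies near the ubiquinone site, was covered by 10 and 3 exon reads in PRMT1-cKO hearts, against 13 and 18 in WT hearts. Its log2 change of -1.51 ± 0.55 (edgeR adjusted p = 0.0432) rests on few reads. Leaving out PRMT1-cKO replicate 2, WT replicate 1 or WT replicate 2 ended the Uqcrb call (adjusted p = 0.263, 0.0800 and 0.396), and its gene reads, at -0.60, did not pass. Cycs, the mobile electron carrier between complexes III and IV (ENSMUSG00000063694, chromosome 6, 50562563 to 50566538), had only 3 and 1 exon reads in PRMT1-cKO hearts, against 1 and 3 in WT hearts and was not tested in them. Its gene reads numbered 14 and 10 in PRMT1-cKO and 20 and 12 in WT, and the log2 change of -0.55 ± 0.47 did not pass (edgeR adjusted p = 0.459).

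In complex IV the 6 subunits tested in exon reads all fell, but Cox5b and Cox7c met the minimum count only through the WT libraries. Cox5a, which sits on the matrix side of the enzyme (ENSMUSG00000000088, chromosome 9, 57521232 to 57532424), had 1172 and 1056 CPM in PRMT1-cKO hearts, against 3151 and 2970.0 CPM in WT hearts, 2.75-fold lower (log2 change -1.46 ± 0.12, edgeR adjusted p = 1.38e-07). Cox7b, a small membrane subunit encoded on the X chromosome (ENSMUSG00000031231, chromosome X, 106015700 to 106022450), had 593 and 579 CPM in PRMT1-cKO hearts, against 1682 and 1536 CPM in WT hearts, 2.74-fold lower (log2 change -1.46 ± 0.13, edgeR adjusted p = 2.63e-07). Cox6c, another membrane subunit, had 423 and 397 CPM in PRMT1-cKO hearts, against 1014 and 992 CPM in WT hearts. Groups stood apart in all 3, every PRMT1-cKO heart lying below every WT heart, as in 34.2% of all genes tested in exon reads. Cox6b1, which joins the monomers of the dimer (ENSMUSG00000036751, chromosome 7, 30616974 to 30626151), fell least, with 1231 and 1267 CPM in PRMT1-cKO hearts, against 2338 and 2488 CPM in WT hearts (1.93-fold, edgeR adjusted p = 1.11e-05). In gene reads the Cox6b1 call (adjusted p = 0.01) was lost without WT replicate 1 (0.0564) and without WT replicate 2 (0.216). Of the members in complex IV, Cox6b2 had at most 3 reads in a library and Cox8c had 0 reads in all 4, and neither was tested. Cox7b2 had 0 exon reads, and its gene reads, 9 and 23 in PRMT1-cKO and 27 and 19 in WT, did not pass. Cox6b2, Cox7b2 and Cox8c are known as testis forms.

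The calls for Cox5b and Cox7c were the least firm of complex IV. Cox5b, a zinc-binding subunit (ENSMUSG00000061518, chromosome 1, 36691484 to 36693681), was covered by 6 and 6 exon reads in PRMT1-cKO hearts, against 16 and 16 in WT hearts. Its log2 change of -1.65 ± 0.50 (edgeR adjusted p = 0.0167) missed the threshold when any 1 library was left out, with adjusted p from 0.0588 to 0.201. Cox7c, a small membrane subunit (ENSMUSG00000017778, chromosome 13, 86044816 to 86046904), was covered by 3 and 4 exon reads in PRMT1-cKO hearts, against 12 and 15 in WT hearts. Its log2 change in exon reads was -2.16 ± 0.58 (edgeR adjusted p = 0.00851), and the call was lost without PRMT1-cKO replicate 1 (0.102), WT replicate 1 (0.0907) or WT replicate 2 (0.260). Gene reads of Cox7c went the other way, with 67 and 284 in PRMT1-cKO and 96 and 132 in WT and a log2 change of 0.37 ± 0.38, which missed the threshold (edgeR adjusted p = 0.547). PRMT1-cKO replicate 2 was far above the other 3 libraries. Without it the log2 change in Cox7c gene reads was -0.86 (adjusted p = 0.0174), and without PRMT1-cKO replicate 1 it was 0.98 (0.000640). Cox7c is also 1 of 20 members with a near copy elsewhere in the genome, 5 in its case.

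The 8 isoform genes of complex IV that the rule leaves out had a larger summed fall than the members. Together they had 1791 and 1687 CPM in PRMT1-cKO hearts, against 10433 and 10482 CPM in WT hearts, 6.01-fold lower. Of the 7 isoform genes tested in exon reads 5 fell, a Cox4 isoform among them, against 18.7% of all genes. Their median log2 change was -1.69. The muscle forms fell most, with Cox7a1 at a log2 change of -4.80 ± 0.15, Cox8b at -3.43 ± 0.15 and Cox6a2 at -2.56 ± 0.14 in exon reads. Their counterparts Cox6a1 (0.66 ± 0.37) and Cox8a (-0.16 ± 0.24) did not pass, while Cox7a2, at -1.10 ± 0.12, fell (edgeR adjusted p = 3.22e-06). No member of complex IV had a fall in exon reads as large as that of Cox6a2. The supercomplex factor Cox7a2l, related in sequence to Cox7a2, had 47 and 67 gene reads in PRMT1-cKO hearts, against 107 and 57 in WT hearts. Its log2 change of -0.67 ± 0.26 did not pass (edgeR adjusted p = 0.0781).

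Complex V held both the largest and the smallest fall among subunits. Atp5g1 (ENSMUSG00000006057, chromosome 11, 96068852 to 96075670) is 1 of a set of genes, with Atp5g2 and Atp5g3, whose products give the same c subunit of the rotor ring. It had 51.4 and 62.5 CPM in PRMT1-cKO hearts, against 354 and 214 CPM in WT hearts, 5.03-fold lower (log2 change -2.33 ± 0.26, edgeR adjusted p = 3.57e-06). Atp5g3 had 44.6 and 35.9 CPM in PRMT1-cKO hearts, against 71.1 and 119 CPM in WT hearts, 2.33-fold lower (edgeR adjusted p = 0.00756). The Atp5g3 call was lost without WT replicate 2 (adjusted p = 0.120). Atp5g2 had 14.9 and 7.81 CPM in PRMT1-cKO hearts, against 19.4 and 29.8 CPM in WT hearts, and its log2 change of -1.07 ± 0.52 did not pass (edgeR adjusted p = 0.123). The log2 changes of the 3 ring genes were -2.33, -1.22 and -1.07, the last with the fewest reads, and differences between them were not tested. In Atp5g1 the WT hearts also differed from each other, by more than the PRMT1-cKO hearts did, and under all alternatives run for exon reads the log2 change lay between -2.67 and -1.94.

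Most other subunits of the membrane part and the stalks fell. Atp5o, the oligomycin sensitivity protein that ties the catalytic head to the peripheral stalk (ENSMUSG00000022956, chromosome 16, 91684398 to 91931687), had 16.2 and 21.9 CPM in PRMT1-cKO hearts, against 79.2 and 55.9 CPM in WT hearts, 3.57-fold lower (log2 change -1.83 ± 0.38, edgeR adjusted p = 0.00137). Gene reads of Atp5o, at -0.65 ± 0.25, did not pass (edgeR adjusted p = 0.0718). Atp5h, subunit d of the stalk (ENSMUSG00000034566, chromosome 11, 115415689 to 115419962), had 79.7 and 84.3 CPM in PRMT1-cKO hearts, against 264 and 287 CPM in WT hearts, 3.35-fold lower (log2 change -1.74 ± 0.20). Atp5k, subunit e, which takes part in joining ATP synthase dimers (ENSMUSG00000050856, chromosome 5, 108433244 to 108434448), had 28.4 and 31.2 CPM in PRMT1-cKO hearts, against 107 and 101 CPM in WT hearts, 3.47-fold lower (log2 change -1.80 ± 0.30). Adjusted p was 3.97e-06 for Atp5h and 0.000196 for Atp5k (edgeR). Groups did not overlap in any of them, PRMT1-cKO lying below WT as in 34.2% of all genes tested in exon reads. Atp5j2 (subunit f) changed by -1.54 and Atp5j (coupling factor 6 of the stalk) by -1.27 on the log2 scale, and both passed. Atp5l, subunit g, had 4 and 9 exon reads in PRMT1-cKO hearts, against 12 and 10 in WT hearts and did not pass at -0.99 ± 0.56.

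Of the catalytic head, Atp5b, the beta subunit that holds the catalytic sites (ENSMUSG00000025393, chromosome 10, 128083273 to 128090391), had the most exon reads of any member and fell least among those that passed. It had 4324 and 4790.3 CPM in PRMT1-cKO hearts, against 7441 and 7346 CPM in WT hearts, 1.62-fold lower (log2 change -0.70 ± 0.11, edgeR adjusted p = 9.79e-05). In gene reads its log2 change of -0.61 ± 0.25 did not pass (edgeR adjusted p = 0.0937), though it did without PRMT1-cKO replicate 1 (0.0238) and with DESeq2 (0.0259). Atp5c1, the gamma subunit that turns inside the head (ENSMUSG00000025781, chromosome 2, 10056016 to 10080510), had 199 and 186 CPM in PRMT1-cKO hearts, against 621 and 588 CPM in WT hearts, 3.14-fold lower (edgeR adjusted p = 4.6e-07). Atp5e, the epsilon subunit of the central stalk (ENSMUSG00000016252, chromosome 2, 174461072 to 174464105), had 285 and 249.9 CPM in PRMT1-cKO hearts, against 905 and 832 CPM in WT hearts, 3.24-fold lower (log2 change -1.70 ± 0.15, edgeR adjusted p = 2.26e-07). Atp5a1, the alpha subunit, was covered by 6 and 4 exon reads in PRMT1-cKO hearts, against 11 and 13 in WT hearts, and its call at -1.50 ± 0.55 (edgeR adjusted p = 0.0431) was lost on leaving out any 1 library, with adjusted p from 0.176 to 0.435. Its gene reads, 95 and 123 in PRMT1-cKO and 256 and 198 in WT, fell (log2 change -1.22 ± 0.20, edgeR adjusted p = 0.000165). The delta subunit gene Atp5d and the stalk gene Atp5f1 had too few exon reads to test and fell in gene reads, with log2 changes of -1.79 ± 0.29 and -1.41 ± 0.24. Atp5b made up most of the summed level of complex V, whose sum was 1.89-fold lower.

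The ATP synthase related genes are not subunits of the enzyme. Atp5s had 33.8 and 26.6 CPM in PRMT1-cKO hearts, against 63.1 and 46.6 CPM in WT hearts, and its log2 change in exon reads of -0.86 ± 0.36 did not pass (edgeR adjusted p = 0.0746). Gene reads of Atp5s changed by -1.06 ± 0.26 (edgeR adjusted p = 0.00493), a call lost without WT replicate 1 (0.130). Atp5sl did not pass in gene reads, at -0.85 ± 0.45, and had too few exon reads.

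Assembly factors were mixed. Cox14, which acts early in the making of the mitochondrially encoded core subunit of complex IV (ENSMUSG00000023020, chromosome 15, 99725618 to 99728136), had 28.4 and 39 CPM in PRMT1-cKO hearts, against 108 and 102 CPM in WT hearts, 3.14-fold lower (log2 change -1.65 ± 0.30, edgeR adjusted p = 0.000396). Cox15, which makes haem A (ENSMUSG00000040018, chromosome 19, 43733254 to 43753000), had 40.5 and 50 CPM in PRMT1-cKO hearts, against 118 and 81.9 CPM in WT hearts (2.23-fold lower, edgeR adjusted p = 0.00591). Uqcc2, needed for the first steps of complex III (ENSMUSG00000024208, chromosome 17, 27122663 to 27133916), had 91.9 and 98.4 CPM in PRMT1-cKO hearts, against 223 and 166 CPM in WT hearts (2.05-fold lower, edgeR adjusted p = 0.00147). Sdhaf2, which adds flavin to Sdha (ENSMUSG00000024668, chromosome 19, 10500513 to 10525209), had 71.6 and 57.8 CPM in PRMT1-cKO hearts, against 157 and 108 CPM in WT hearts (2.05-fold lower, edgeR adjusted p = 0.00565). In these 4 genes both PRMT1-cKO hearts lay below both WT hearts, as in 34.2% of all genes tested in exon reads. WT replicate 1 was above WT replicate 2 in each of the 4. Without WT replicate 1 the exon calls of Cox15 (adjusted p = 0.0900) and Sdhaf2 (0.102) were lost. Cox10, which makes haem O, the precursor of haem A, fell in gene reads (log2 change -1.15 ± 0.21, edgeR adjusted p = 0.000427) but in exon reads, at -0.83 ± 0.34, it did not pass.

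The remaining assembly factors did not pass. Cox20, a chaperone of the mitochondrially encoded Cox2 subunit, had 93.3 and 131 CPM in PRMT1-cKO hearts, against 175 and 142 CPM in WT hearts (log2 change -0.51 ± 0.23, edgeR adjusted p = 0.0978). Its exon reads passed when PRMT1-cKO replicate 2 was left out, with a log2 change of -0.74 (adjusted p = 0.0200). Uqcc3, a complex III factor, had 31.1 and 37.5 CPM in PRMT1-cKO hearts, against 37.2 and 24.2 CPM in WT hearts, and its groups overlapped (log2 change 0.14 ± 0.40). Cox19, a copper-related factor singled out after its values were seen, was the member with the largest positive change. It had 70.3 and 34.4 CPM in PRMT1-cKO hearts, against 25.9 and 24.2 CPM in WT hearts, a log2 change of 1.07 ± 0.42 (edgeR adjusted p = 0.0565), with PRMT1-cKO replicate 1 far above the other 3 libraries. Without PRMT1-cKO replicate 2 Cox19 passed as higher in exon reads (log2 change 1.51, adjusted p = 0.00205) and in gene reads (1.07, 0.00222). Cox18, which inserts part of Cox2 into the membrane and was also singled out after its values were seen, had 66 and 44 gene reads in PRMT1-cKO hearts, against 34 and 26 in WT hearts. Its log2 change of 0.73 ± 0.33 did not pass (edgeR adjusted p = 0.12), but without PRMT1-cKO replicate 2 it did (1.07, adjusted p = 0.0124). Cox11 and Uqcc1 did not pass in gene reads, at -0.50 and -0.50. Uqcc1 passed as lower without PRMT1-cKO replicate 2, at -0.56 (adjusted p = 0.0317). Cox16, with 0 reads in all libraries, and Cox17, with at most 5, were not tested.

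Intron reads, a separate set from the exon reads, also fell for many members. Of 47 members tested in intron reads, 26 were lower (edgeR, adjusted p under 0.05), against 11.0% of 13217 genes, with a median log2 change of -0.79. Among the 26, Uqcr11, with 3 and 9 intron reads in PRMT1-cKO and 31 and 14 in WT, met the minimum count only through WT. Its intron call adds no support. Across the 38 members tested in both, exon and intron changes had a Pearson r of 0.189 and a Spearman rho of 0.121, a description over genes that share the 4 libraries. The exon change was the more negative in 27 of the 38. When exon and intron reads were compared within each gene, 1 of 35 members passed (diffSpliceDGE in edgeR, adjusted p under 0.05), against 3.88% of 4196 genes. The median of exon minus intron log2 change was -0.37 for members and 0.18 over all genes. The member that passed was Atp5e, with 39 and 16 in PRMT1-cKO and 16 and 12 in WT intron reads, an intron log2 change of 0.86 ± 0.47, short of the threshold, and an exon minus intron difference of -2.42 (adjusted p = 0.000200). Leaving out WT replicate 1 or WT replicate 2 left 0 members past that test, and leaving out PRMT1-cKO replicate 1 gave 2. Atp5o intron reads changed by -0.10 ± 0.29 and did not pass, and its gene model in the table spans other annotated genes. Uqcc2 intron reads, at 0.12 ± 0.35, did not pass either, while those of Uqcr10 fell by 2.39 on the log2 scale. Uqcr10 had 9 and 4 intron reads in PRMT1-cKO and 43 and 21 in WT, and PRMT1-cKO replicate 2 missed the minimum count.

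**Figure D4:**
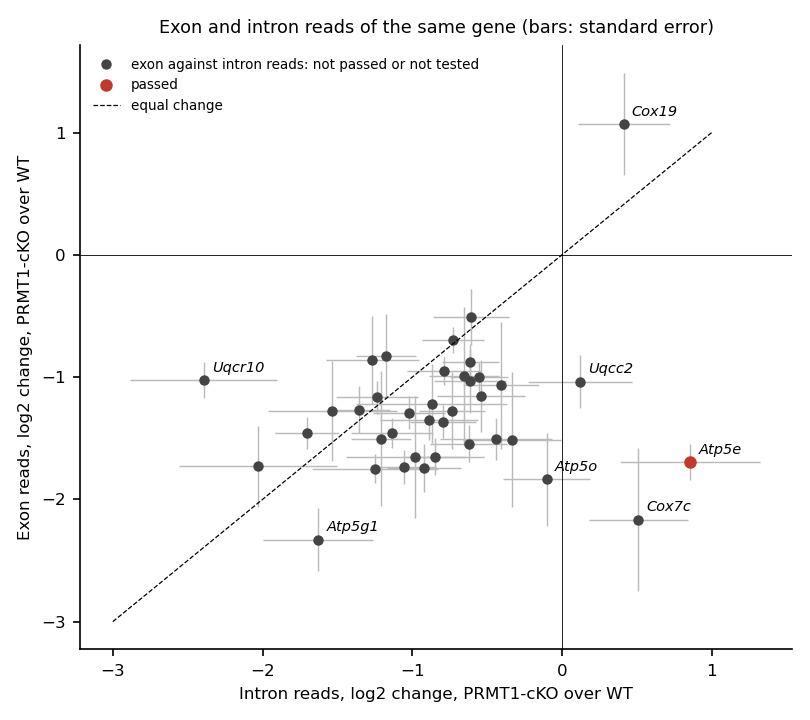
Log2 change in intron reads (horizontal) and in exon reads (vertical), PRMT1-cKO over WT, for the 38 members tested in both, with standard errors; the dashed line marks equal change. Most points lie in the lower left, where both fell, and Atp5e, the red point, is the 1 member past the test of exon against intron reads.

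Other genes of the same machinery were counted from a list that does not depend on the symbol rule. Of 30 assembly, translation and regulatory factors of complexes III to V in the table, 16 could be tested in exon reads and 9 fell, against 18.7% of all genes. Among the 9, Cmc2 missed the minimum count in PRMT1-cKO replicate 1 and Tmem70 in PRMT1-cKO replicate 2. In gene reads 9 of 27 fell, against 11.2% of all genes. None rose in exon reads (17.6% of all genes) or in gene reads (11.5%), nor at an unadjusted p under 0.05 or with DESeq2. Total counts alone left 3 lower and 0 higher in gene reads. Lrpprc, which stabilises mitochondrial mRNA, had a log2 change in exon reads of -1.62 ± 0.13, and Taco1, a translation activator of the Cox1 subunit, -1.78 ± 0.27. Ndufa4, now counted as a subunit of complex IV, had -1.63 ± 0.11, and Usmg5, a small subunit of ATP synthase, -1.62 ± 0.13. The mitochondrial protease subunit Afg3l2 (0.19 ± 0.16) and the complex IV assembly factors Cmc1 (-0.13 ± 0.28) and Pet100 (-0.17 ± 0.32) did not pass.

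Of 15 regulators of respiratory genes, 7 fell in gene reads, against 11.2% of all genes, and 4 of 6 tested in exon reads, against 18.7%. None rose in gene reads (11.5% of all genes) or in exon reads (17.6%), nor at an unadjusted p under 0.05 or with DESeq2. With total counts alone 3 fell (Ppargc1a, Ppargc1b and Ppara) and Yy1 rose. Gene reads of these regulators are mostly intron reads. The coactivator Ppargc1a, a main inducer of mitochondrial genes, had 548 and 1202 gene reads in PRMT1-cKO hearts, against 5207 and 5821 in WT hearts, a log2 change of -2.89 ± 0.32 (edgeR adjusted p = 1.92e-06). Its exon reads, 10 and 13 in PRMT1-cKO and 38 and 36 in WT, changed by -1.93 ± 0.39 (edgeR adjusted p = 0.00107). PRMT1-cKO replicate 1 did not meet the minimum count there, which is scaled to library size. Ppargc1b, a relative of Ppargc1a, changed by -1.89 ± 0.22 and the nuclear receptor Ppara by -2.46 ± 0.24 in gene reads. Exon reads of Ppara, 1 and 6 in PRMT1-cKO and 15 and 9 in WT, met the minimum count only through the WT libraries. The exon call of Ppara thus adds no support. Of the ERR family of nuclear receptors, Esrra fell in gene reads (-0.72 ± 0.20) and in exon reads (-1.28 ± 0.27). Esrrg (-1.16 ± 0.25) and Esrrb (-0.75 ± 0.19) fell in gene reads, nearly all of them intron reads. Esrrg had 11 and 6 exon reads in PRMT1-cKO hearts, against 0 and 4 in WT hearts, and Esrrb 2 and 0 in PRMT1-cKO and 1 and 0 in WT, too few to test. Nrf1, Gabpa, Gabpb1 and Yy1, which give the other motifs their names, had log2 changes in gene reads of -0.18 ± 0.20, -0.39 ± 0.20, 0.02 ± 0.19 and 0.32 ± 0.20 and did not pass. The 6 mitochondrially encoded subunits of complexes III to V were listed at 0 reads in every library, so no level can be given for them.

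Markers of some heart cell types moved alongside. Of 10 cardiomyocyte markers, 5 of 8 tested fell in exon reads and 6 of 10 in gene reads, with none at 0. Their summed exon reads were 37571 to 42214 CPM in PRMT1-cKO hearts, against 75261 to 76424 CPM in WT hearts, so the PRMT1-cKO sum was 52.6% of WT, beside 45.7% for the members. Tnnc1, a thin-filament marker, changed by -0.11 ± 0.11 in exon reads and did not pass, and Myh6 fell by 1.40 on the log2 scale. Tnnt2, another thin-filament marker, had 274 and 333 CPM in PRMT1-cKO hearts, against 233 and 235 CPM in WT hearts in exon reads. It changed by 0.37 ± 0.17 on the log2 scale, past 0.05 only before adjustment (edgeR adjusted p = 0.1). Gene reads of Tnnt2 fell (-0.98 ± 0.26), and its exon and intron reads differed in change (adjusted p = 1.54e-05). With total counts alone 4 cardiomyocyte markers fell in gene reads. All 8 fibroblast markers rose in gene reads, with summed gene reads of 412 to 754 CPM in PRMT1-cKO and 134 to 187 CPM in WT, and all 6 leukocyte markers tested rose, with sums of 52.8 to 70.9 CPM in PRMT1-cKO and 21.2 to 27.4 CPM in WT. DESeq2 called 8 fibroblast and 5 leukocyte markers higher in gene reads. Endothelial markers had 2 of 6 lower in gene reads and 0 higher, mural markers 1 of 6 higher and fat markers 1 of 5 lower, the last being Ucp1. In exon reads 3 of 6 mural markers were lower and 0 higher, and 1 of 4 endothelial and 1 of 3 fat markers were lower. Of all genes tested, 11.2% were lower and 11.5% higher in gene reads, and 18.7% and 17.6% in exon reads. Red cell markers had 1 tested gene, Alas2, which rose with edgeR but did not pass with DESeq2, and Hba-a1 at 0. Summed gene reads of the red cell markers in WT replicate 2 were 0.117 CPM, too few for Alas2 to meet the minimum count there. Alas2 could thus not have been tested through the WT libraries alone. The part of cell composition in the fall of the members was not tested.

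Sequence copies and overlaps bear on some members. The coding sequence of 20 members has a near copy elsewhere (at least 95% identity over at least 50 bases). In exon reads 14 of 17 members with a copy fell (median log2 change -1.51) and 20 of 24 without one (median -1.24), against 18.7% of all genes. The 40 copies in the table had 185 and 193 gene reads in all in PRMT1-cKO hearts, against 353 and 375 in WT hearts, and 18 of them had 0. Counting by strand is not stated, and 23 members overlap another gene annotated in GENCODE M21; of the 31 that do not, 20 of 23 tested fell in exon reads (median -1.46). In the authors' deposited table, which tests gene reads, 32 members were lower at a corrected p under 0.05 and 0 were higher. Of all 43346 genes listed there 3.16% were lower, a share that counts genes without reads, unlike the shares of tested genes given above. Of the 32 members, 31 were also lower in gene reads here.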

How the data were processed

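Total RNA of 2 PRMT1-cKO and 2 WT hearts was sequenced with a SOLiD kit after ribosomal RNA removal, per the labels' protocols; the submitters' processing notes name GRCm38, and no source used here gives the aligner, counter or strand setting. The deposited counts are gene reads and exon reads per gene, per the file headers. Of 2605955 exon reads 29 cross no junction, and the values listed as unique equal the totals. The authors' RPKM values, p-values and signed fold change score (EDGE test, tagwise dispersions) were deposited in the same table; RPKM was not tested. Column names carry the groups and replicate numbers of the sample titles.

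Counts over the whole table went into edgeR 4.0.16 under R 4.3.3 (TMM, minimum count 10, minimum total 15, quasi-likelihood, two-sided, Benjamini-Hochberg adjusted p under 0.05), with genotype as the only term. Standard errors (SE) were taken as log2 change over the root of F. Exon against intron reads used diffSpliceDGE. With 2 hearts a group, p-values set the group difference against the spread within the groups of these 4 libraries, an estimate that edgeR shares in part across genes. A count of 0 allows up to 3 reads, 3.92 to 5.51 CPM of exon reads, counting error only. Scripts were tested on simulated data. Alternatives were DESeq2 1.42.0, other scalings and filters, a replicate block and leaving out each library. Named were, per class, the 4 members with the largest fall in exon reads (at least 5 CPM) and the 2 with the smallest change, members with opposite signs in gene and exon reads or past the exon against intron test; others are given to account for every member. Members and lists were chosen with earlier results of these data known.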

Additional observations from a re-analysis of the deposited data

How the results depend on the processing

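The count of members lower in PRMT1-cKO was 34 in exon reads and 28 to 32 when 1 library was left out, and 35 and 26 to 36 in gene reads. Of the members called lower, 26 of 34 in exon reads and 24 of 35 in gene reads passed without each of the 4 libraries in turn. DESeq2 gave 29 and 30. Scaling by total counts alone moved the median of all genes in gene reads by 0.52 on the log2 scale, and 87.3% of its 5243 calls were then higher, against 50.8% with TMM. Members lower numbered 18 there, with 4 in complex III, 2 in complex IV and 1 assembly factor; members minus all genes stayed at -1.08. In exon reads total counts gave 34. The assembly factors lower in gene reads numbered 2 with DESeq2 and 1 in reads outside exons, and DESeq2 called 1096 genes in exon reads against 1723. Without 1 library, genes changed numbered 1815 (without WT replicate 1) to 3664 in gene reads and 1265 to 1704 in exon reads, lower members of complex IV in gene reads 3 (without WT replicate 2) to 6, lower assembly factors 2 (without WT replicate 1) to 5 in gene and in exon reads, and members past the exon against intron test 0 (without either WT library) to 2 (without PRMT1-cKO replicate 1). Signs turned for Uqcc2 (0.12) and Atp5e (0.86) in reads outside exons, for Cox7c gene reads without PRMT1-cKO replicate 2 (-0.86, against 0.98 without PRMT1-cKO replicate 1) and without WT replicate 1 (-0.03), and for Uqcc3 exon reads without WT replicate 2 (-0.15, against 0.47 without WT replicate 1). Cox20 (0.011), Cox11 (0.01), Uqcc1 (0.02) and Atp5g2 (0.02) gene reads, each at -0.50 with TMM, turned positive with total counts alone, a scaling that moved the median of all genes by 0.52. The cause of the other sign changes was not tested. With the replicate number as a block, 32 members fell in exon reads and 30 in gene reads. The labels do not say that a number pairs hearts, and deviations of same-numbered hearts correlated at -0.124 in gene reads and -0.00916 in exon reads. Exon reads are few for Cox7c, Atp5a1, Atp5l, Cox5b, Atp5g2 and Uqcrb, which met the minimum count only through the WT libraries.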
